A study of Mus musculus with 4 samples.

Results

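Listed positions of a table of RNA bisulfite calls were counted in windows (bins) of 100 nt on each strand, and the 94 bins holding 20 or more of them are described here. They contain 2115 of the 506952 listed positions, and they are 0.0602% of the 156116 chromosome bins with at least 1 listed position. Bins labelled with the pancreatic hormone genes Ins1, Ins2, Gcg or Iapp were left out, and with them there would be 107 (0.0685%). The cells are a mouse acute myeloid leukemia line driven by NRAS and AE9a, a short form of the AML1-ETO fusion protein, grown with cytokines (SCF, 50 ng/ml, IL-3, 10 ng/ml, and IL-6, 10 ng/ml) and under selection with both G418 (1 mg/ml) and puromycin (2 µg/ml). The labels name 2 WT and 2 Tet2 KO libraries of bisulfite-converted poly(A) RNA; the sources used here give neither the knockout allele nor the number of clones behind it. The table, by its name, lists positions called only in the KO, and WT values (0 columns) and values of a single library (0 columns) are not in it, so KO and WT were not compared. Whether the replicates came from separate cultures is not said in the labels, and the depth of each library was not analysed here.

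5-Methylcytosine in RNA is placed by methyltransferases of the NSUN family and by TRDMT1, and TET enzymes such as TET2 can oxidise it. Bisulfite deaminates unmethylated cytosine to uracil in single-stranded RNA, so that it is read as thymine, whereas 5-methylcytosine stays cytosine. A position's level is the share, from 0 to 1, of reads used there that the authors counted as still cytosine. The bins were chosen by how many positions the KO libraries had listed in them. Counts, levels, read coverage and replicate calls of those libraries are therefore given as descriptions with no test.

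The sequence under 4 of the 94 bins could be read, where a bin overlaps a RefSeq promoter window (GRCm38.p6, the assembly of mm10) by 50 nt or more. They are shown because they tell which bases the listed positions are. Each is the plus strand, 5′ to 3′, and capitals mark the listed positions. The bins are in Stk35, a kinase gene (chr2:129801500-129801599), in Bccip, whose product binds BRCA2 (chr7:133709400-133709499), in Pwwp2a, which encodes a chromatin-binding PWWP domain protein (chr11:43682200-43682299), and at a place with no gene label just before the start of Efcab14 (chr4:115737823-115737899, which holds 17 of that bin's 20 positions).
Stk35: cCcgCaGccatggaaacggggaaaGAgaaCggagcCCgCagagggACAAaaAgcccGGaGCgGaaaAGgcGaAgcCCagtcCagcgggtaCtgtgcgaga
Bccip: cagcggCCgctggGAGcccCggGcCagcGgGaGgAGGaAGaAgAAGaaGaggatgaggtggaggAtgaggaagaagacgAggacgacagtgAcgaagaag
Pwwp2a: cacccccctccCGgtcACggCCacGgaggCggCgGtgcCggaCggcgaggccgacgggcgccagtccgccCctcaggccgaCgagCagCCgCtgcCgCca
No label: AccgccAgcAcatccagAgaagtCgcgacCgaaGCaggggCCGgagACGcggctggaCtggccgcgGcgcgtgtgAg

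Cytosines were fewer than the other bases together among the listed positions of these bins. Of 90 listed positions with a RefSeq base, 39 were cytosine (43.3%), 28 guanine (31.1%) and 23 adenine (25.6%), and 0 were thymine. The bins are therefore called dense bins of listed positions below, not clusters of unconverted cytosines. In the printed stretches, 39 of 111 cytosines were listed (35.1%), against 26 of 150 guanines (17.3%), 23 of 94 adenines (24.5%) and 0 of 22 thymines. Pwwp2a differed from the others in the makeup of its positions, with 16 cytosines, 3 guanines and 1 adenine. The bin in Bccip had 4 cytosines, 11 guanines and 9 adenines, many of them in its purine-rich middle. Stk35 had 12 cytosines, 8 guanines and 7 adenines.

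Levels at cytosines overlapped those at the other bases in Stk35, Bccip and Pwwp2a. In Stk35 the median level was 0.637 at cytosines (0.378 to 0.778), 0.603 at guanines (0.3 to 0.692) and 0.583 at adenines (0.333 to 0.846). In Bccip it was 0.3 at cytosines (0.3 to 0.727), 0.65 at guanines (0.25 to 0.75) and 0.462 at adenines (0.231 to 0.8). In the printed stretch of the unlabelled bin the 4 guanines lay at 0.81 to 0.882 and the 7 cytosines at 0.588 to 0.804. The 6 adenines there spanned both ranges, at 0.278 to 1. The 3 listed positions of that bin before the stretch, which include guanines, were lower, at 0.636, 0.343 and 0.3. Over the 90 positions, a call in both KO replicates was listed at 9 of the 39 cytosines, 3 of the 28 guanines and 1 of the 23 adenines. What the authors' caller counted as unconverted at a guanine or adenine is not stated in these sources, and a level at a position of unknown base is given below only as listed.

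The same was seen across the table, wherever a RefSeq base could be read. Of 6183 listed chromosome positions with a base, 2913 were not cytosine (47.1%) and 0 were thymine. The coordinates were checked by moving the plus-strand positions by 1 nt. Thymine then stood at 17.7% or 18.9% of positions, and the share of cytosine fell from 52% to 29.2% or 30.2%. The share of cytosine was 51.3% in bins with 1 listed position, 49.9% in bins of 2 to 4 and 54.3% in bins of 5 to 9. It was 58.9% in bins of 10 to 14 and 59.2% in bins of 15 to 19, the last over 98 positions. The plot of bases by bin density shows these shares. The 4 dense bins read here are too few to tell whether the other 90 have the same makeup.

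**Figure D1:**
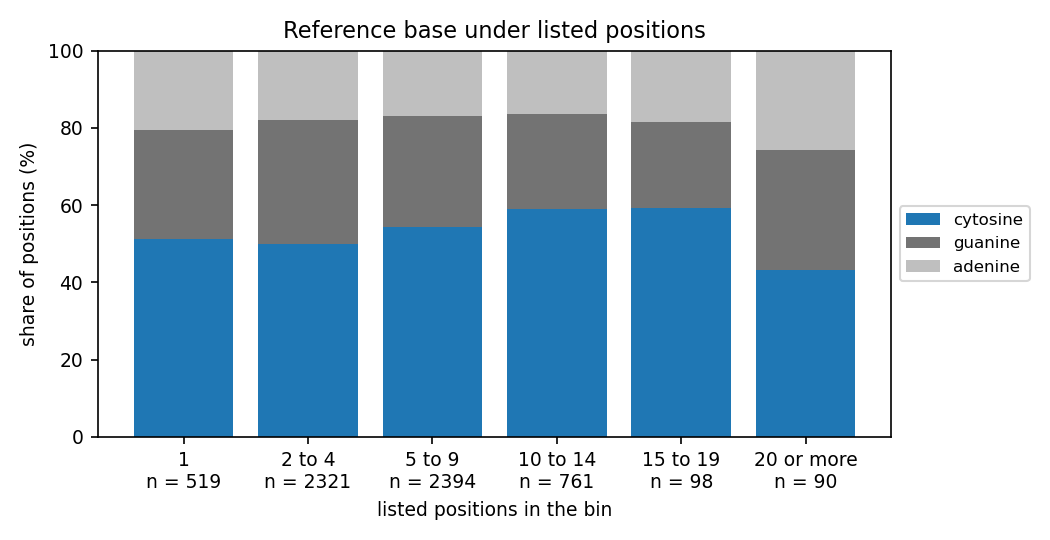
Share of listed positions (y axis, percent) by their RefSeq base, for bins of 100 nt grouped by the number of listed positions they hold (x axis, with the number of positions whose base is known). Cytosine makes up 51.3% in the leftmost bar and 43.3% in the dense bins, and no bar has a thymine part.

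Bins grew rarer as they grew fuller. The median chromosome bin held 2 listed positions, 4956 bins held 10 to 19 (3.17%), and 48 bins outside the hormone genes held 19. Among the dense bins, 31 held exactly 20 positions, 64 held 20 to 22 and 5 held 30 or more, with a highest count of 39. The 48 bins of 19 had a median level of 0.56 and 17.8% of positions called in both replicates, and the 31 bins of 20 had 0.538 and 16.1%. Bins just inside and just outside the limit differed more in place. Of their position and gene pairs, 16.7% and 33.5% were in the last decile of the gene. Pairs of a bin share their place, and they come from at most 31 and 48 bins. On the spike-in RNAs, synthetic transcripts that serve as a control, 0 of 291 bins held 20 or more positions, which allows a share of up to 1.03% (3 counts of the total, counting error only). The highest spike-in bin held 18. Bins of 10 to 19 made up 26 of the 291 spike-in bins (8.93%).

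**Figure D2:**
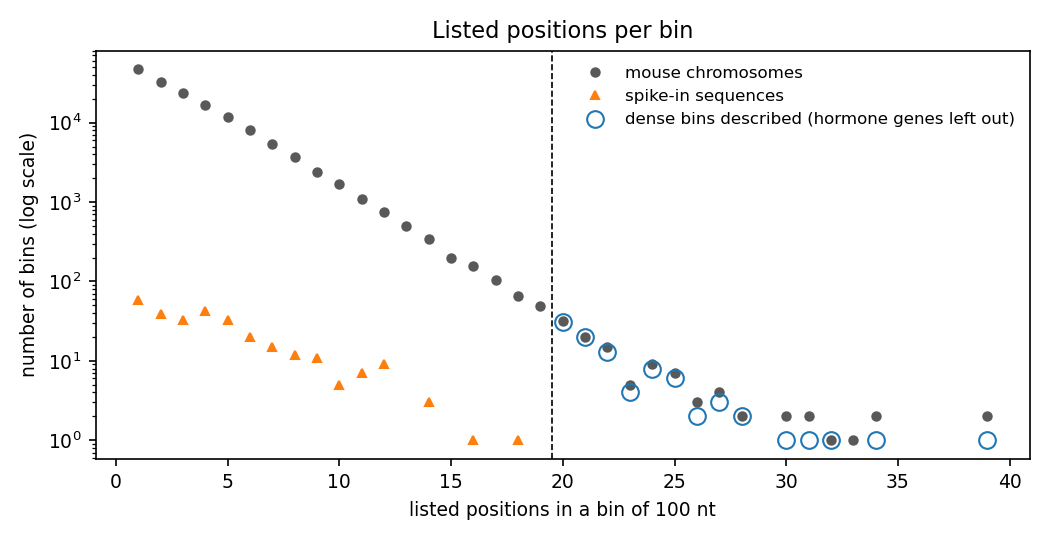
Number of bins (y axis, log scale) against the listed positions in a bin of 100 nt (x axis) for mouse chromosomes, spike-in sequences and the dense bins described. Points right of the dashed line hold 20 or more positions, up to 39, and the highest spike-in bin holds 18.

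All 94 dense bins were on the plus strand, where 99.1% of the listed chromosome positions lie. A gene label was given for 90 of them, and 86 gene labels had at least 1 dense bin, of 7821 labels with a listed position (1.10%). Which genes these are depended on where bins begin: with bins shifted by 50 nt, 32 of the 86 labels (37.2%) still had a dense bin. In 89 bins the gene was protein-coding, and in 1 it was the long non-coding RNA D030028A08Rik. Only Mdc1, Tgfb1, Filip1l and Cyb5r1 had more than 1 dense bin. Positions of a bin filled a median of 83 nt from first to last (36 to 100), with a median step of 2 nt. Neighbouring positions 1 nt apart made up 34.4% of the steps, against 13.6% outside the dense bins, which follows in part from the choice of full bins. The longest run of adjoining positions was 11, in Cdk11b, which encodes a cyclin-dependent kinase tied to transcription and splicing.

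Upf3a encodes a factor of nonsense-mediated decay, which removes messenger RNAs with premature stop codons. It had the densest bin, with 39 positions between 13795601 and 13795696 on chromosome 8. Their levels ran from 0.231 to 1 with a median of 0.545, at 11 to 22 covering reads. Some neighbouring positions differed widely, as in a pair chosen after its levels were seen. At 13795679, 3 of 13 reads were unconverted (level 0.231, Wilson 95% interval 0.0818 to 0.503), and at the next position 12 of 14 were (0.857, interval 0.601 to 0.960). Others were close, such as 13795691 and 13795692 at 0.577 and 0.593. Only 3 positions of Upf3a were called in both KO replicates, with levels of 0.243 ± 0.0424, 0.577 ± 0.163 and 0.593 ± 0.171 (SD, n = 2). The bin held 35.1% of the gene's 111 listed positions.

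Upf2, whose product links UPF1 to UPF3 proteins in the same pathway, had 31 positions between 5957711 and 5957796 on chromosome 2. Its levels were lower and closer together, from 0.231 to 0.867 with a median of 0.417. The highest, at 5957777, had 13 of 15 reads (0.867, interval 0.621 to 0.963). The 4 positions called in both replicates had levels of 0.26 ± 0.0735, 0.4 ± 0.141, 0.268 ± 0.0566 and 0.303 ± 0.0424 (SD, n = 2). Both bins around it were also filled, with 14 and 12 positions.

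Chaf1a encodes the large subunit of the chromatin assembly factor that deposits histones behind replication forks. It had 34 positions in 73 nt, between 56057817 and 56057889 on chromosome 17, with levels from 0.267 to 0.9 and a median of 0.508. The 9 positions called in both replicates lay between 0.35 ± 0.0707 and 0.591 ± 0.0636 (SD, n = 2), inside the range of the other positions. The bin before it held 19 positions and the bin after it 0. Its longest run of adjoining positions was 8.

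Tgfb1, the gene of the cytokine TGF-beta 1, had 55 positions in 2 adjoining bins, from 25704527 to 25704698 on chromosome 7 and within the last decile of the gene span. The upstream bin had 27 positions with a median level of 0.545, and the downstream bin 28 with a median of 0.369. Both ran from 0.2 to 1. Calls in both replicates numbered 2 and 0. A position at 25704646 kept 20 unconverted reads of 20 used (interval 0.839 to 1), and at 25704647 only 3 of 14 reads were unconverted (0.214, interval 0.0757 to 0.476). That adjoining pair was chosen after its levels were seen.

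Mdc1 encodes a scaffold of the DNA damage response that binds phosphorylated histone H2AX. It had the longest stretch, with 62 positions in 3 adjoining bins over 284 nt, from 35850510 to 35850793 on chromosome 17, near the middle of the gene. From upstream to downstream the bins had median levels of 0.5, 0.54 and 0.333. Calls in both replicates numbered 3, 1 and 0. Its lowest position kept 3 of 15 reads (0.2, interval 0.0705 to 0.452), and the position at 35850792 kept 18 of 20 (0.9, interval 0.699 to 0.972).

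**Figure D3:**
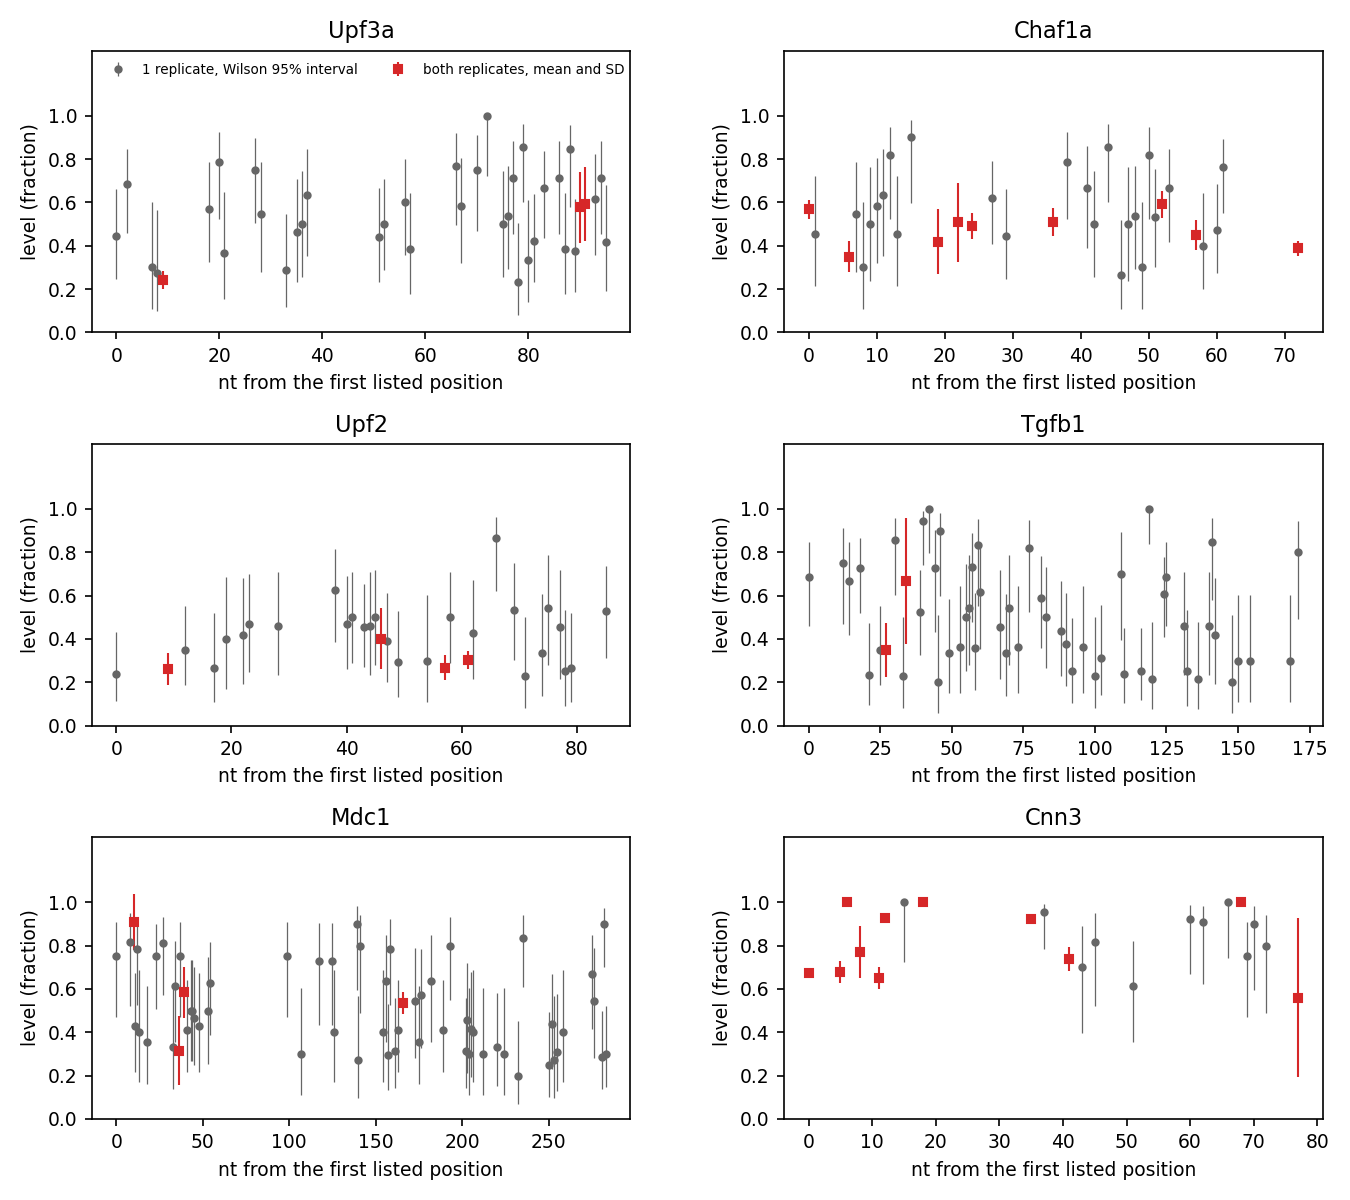
Level (y axis, fraction of reads used) against distance from the first listed position (x axis, nt) in the dense bins of 6 genes; grey points were called in 1 replicate and have Wilson 95% intervals, red squares were called in both and have the SD of the replicates. High and low levels stand side by side in Upf3a, Chaf1a, Tgfb1 and Mdc1, Upf2 is lower (median 0.417), and Cnn3 is highest (median 0.859).

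The other genes with the fullest bins had levels across the same range. Spg20, which encodes spartin, had 32 positions (median level 0.522), Kif21b, a kinesin motor gene, 30 (0.62), Cdk11b 28 (0.607), and Golgb1, the gene of the Golgi tether giantin, 27 (0.417). In D030028A08Rik there were 26 positions, 9 of them called in both replicates, with a median of 0.429. Fmr1, which encodes the fragile X protein and was chosen after its values were seen, also had 26 (0.514). Cdk11b had 0 calls in both replicates and Kif21b 1. The pair of bins in Filip1l lay in the last decile and had median levels of 0.407 and 0.432, and those of Cyb5r1, a cytochrome b5 reductase gene, had 0.519 and 0.385.

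Cnn3, which encodes an actin-binding calponin, stood highest in level and in replicate calls. Its 22 positions, from 121426622 to 121426699 on chromosome 3, lay at 0.39% of the gene span from the 5′ end and had a median level of 0.859. The lowest was 0.559, where the replicates differed most (SD 0.366, n = 2), and 5 positions had a level of 1. Of these positions 11 were called in both replicates, the most of any dense bin, before Tmem176a, Chaf1a and D030028A08Rik with 9 each. Zfpm1 had 8, as did Insyn1, the unlabelled bin on chromosome 16, and Cntln, Dcaf17 and S1pr3, the last 3 chosen after their values were seen. At 121426640 both replicates had a level of 1, with a rounded mean of 15 unconverted reads, although the rounded mean of covering reads was 24. After Cnn3 came Pwwp2a (median 0.766), the unlabelled bin before Efcab14 (0.75), Gnl1, a GTP-binding protein gene (0.716), and Insyn1, listed as 6030419C18Rik (0.705).

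The lowest median levels were in Mdc1 and Tnrc6b, which encodes a partner of Argonaute in silencing by microRNAs, both at 0.333. Tnrc6b had 21 positions, and its 3 calls in both replicates were 0.325 ± 0.0127, 0.342 ± 0.0113 and 0.327 ± 0.0368 (SD, n = 2). Its highest position, at 80858748, kept 10 of 13 reads (0.769, interval 0.497 to 0.918). Next came Zfp326, a zinc finger gene (0.357), Tgfb1 (0.369) and Top1, the gene of DNA topoisomerase I (0.385). Top1 was also the most deeply read, with a median of 29 covering reads and up to 71. Zbtb12 (27), Smarcc2, a subunit of the SWI/SNF remodeller (26), and Zfpm1, a partner of GATA factors (25), followed in median coverage.

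The share of a gene's listed positions that fell into its dense bin varied widely. The highest share among genes with a full bin was in Snrnp25, a spliceosome gene chosen after its values were seen, with 22 of 37 (59.5%). Bccip had 24 of its 53 listed positions in 1 bin (45.3%), Cnn3 22 of 62 (35.5%) and Filip1l 43 of 124 in its pair of bins (34.7%). In Mdc1 it was 62 of 312 (19.9%), in Tgfb1 55 of 342 (16.1%) and in Kif21b 30 of 416 (7.21%). Golgb1, which ranked 3 among all gene labels by listed positions, had 27 of 551 in its dense bin (4.9%). Some dense bins stood in filled surroundings and others alone. Of the 94, 26 were beside a bin with 10 or more listed positions, as in Upf2 and Chaf1a. In 13 both neighbouring bins were empty, as in Zfp326 and Insyn1. The same was not counted for less full bins, so neither number has a background to be read against.

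The 4 bins with no gene label did not share a level. On chromosome 12, 22 positions from 69311401 to 69311498 had a median level of 0.485, with 4 called in both replicates. On chromosome 16, 22 positions from 32187100 to 32187197 had a median of 0.433, with 8 called in both. On chromosome 19, 21 positions from 3083722 to 3083799 had a median of 0.6, with 5 called in both. The remaining one is the bin before Efcab14 printed above. By chromosome, dense bins were most frequent on chromosome 8, with 10 of the 94 (10.6%), where 5.65% of the listed chromosome positions lie. Chromosomes 2, 16 and 17 followed with 8 each (8.51%), and hold 8.75%, 3.37% and 5.11% of the positions.

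Over all dense bins the level was close to that of the rest of the table. The 2115 positions had a median level of 0.533 with quartiles of 0.385 and 0.688, against 0.526 (0.364 and 0.7) for positions outside the dense bins. Bin medians ran from 0.333 to 0.859, with quartiles of 0.482 and 0.594. In 7 bins the median was below 0.4, and in 5 above 0.7. Single bins reached further than the medians. The lowest level in a bin had a median of 0.227, the highest a median of 0.909, 27 bins held a position at 1 and 31 one at 0.2, the lowest level in the table. A level of 1 was listed for 51 positions (2.41%), against 3.96% outside.

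**Figure D4:**
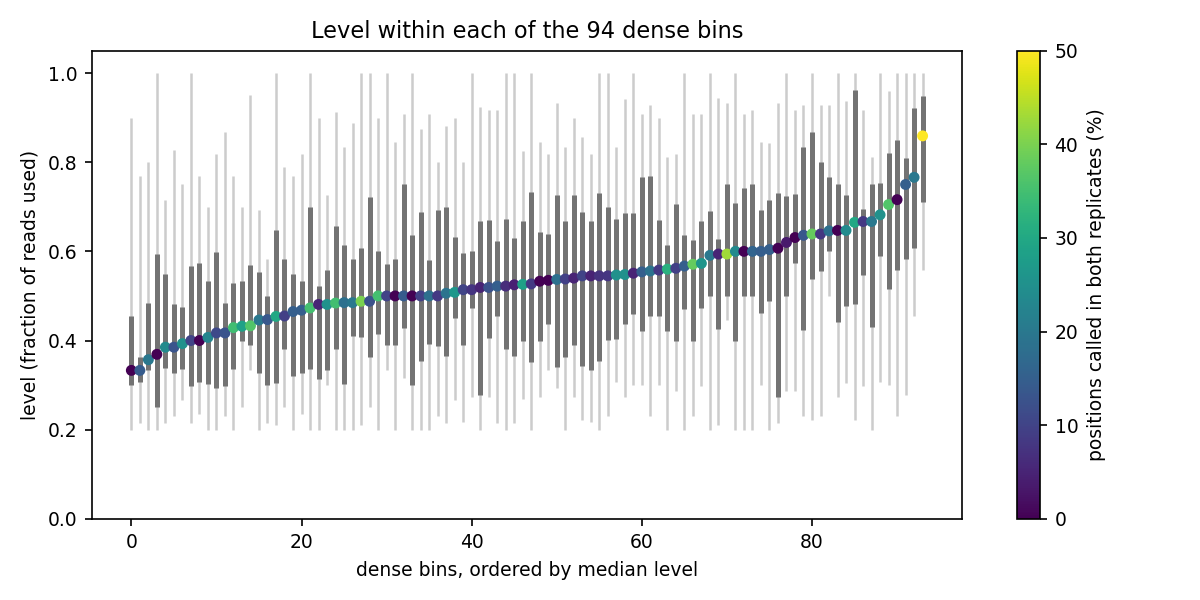
Level (y axis, fraction of reads used) in each of the 94 dense bins, ordered by median (x axis); points are medians coloured by the share of positions called in both replicates, dark bars span the quartiles and light bars the lowest to the highest position. Medians run from 0.333 to 0.859, while the lowest position of a bin has a median of 0.227 and the highest a median of 0.909.

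Most positions in dense bins were called in 1 KO replicate. Calls in both were listed for 335 of 2115 positions, 15.8%, against 14.2% of all listed chromosome positions. This share was near the background. Its exact binomial interval, 14.3 to 17.5, covers counting error only. It treats positions as independent, although those of a bin share reads, and the shares of single bins ran from 0% to 50%. The interval is thus too narrow to be set against the background. In less full bins the share called in both rose with density, from 11.1% in bins of 1 to 19.3% in bins of 15 to 19. In 12 dense bins there were 0 calls in both, the highest number was 11, and 0 dense bins held 20 or more. The positions of a dense bin can thus come from different libraries, and the table does not name the replicate behind a single call. Within the coverage classes of 10 to 14, 15 to 19 and 20 to 29 reads the share was 11.3%, 15.4% and 22.2% in the dense bins and 8.74%, 14.1% and 18% outside them. At 30 or more reads it was 18.1% in the dense bins, over 94 positions, and 18.7% outside. The SD of the replicates at positions called in both had a median of 0.0806 in the dense bins and 0.0707 outside. The dense bins in hormone genes, by comparison, had 74.7% of 356 positions called in both, at a median of 53 covering reads.

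Coverage was modest. Their positions had a median of 16 covering reads with quartiles of 14 and 20, against 18 (13 and 25) outside. At positions called in 1 replicate, a median of 13 reads entered the level, and 85.7% of the covering reads were used, against 12 reads and 82.6%. At 13 reads an interval spans a large part of the scale, as in the Upf3a values above. Small differences between single positions of a bin were therefore not detectable at this depth.

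The first and the last decile of the gene held the most dense bins. Of the 90 bins in a RefSeq gene span, 19 (21.1%) were in the first decile from the 5′ end and 19 (21.1%) in the last. Of the pairs of a listed position and a gene outside dense bins, 8.3% were in the first decile and 28.8% in the last. The last decile held 28.8% of all pairs and 21.1% of the pairs in dense bins. Bins of 10 to 14 and of 15 to 19 positions lay between, at 26.4% and 24.5%. The next 2 deciles after the first held 3 bins each. Besides Upf2, Stk35, Bccip, Cnn3, Pwwp2a, Gnl1 and Insyn1, the first decile included Ptgir, a prostacyclin receptor gene, and Nrp1, which encodes neuropilin 1, both chosen after their values were seen. In all, 14 bins lay within 1000 nt of the 5′ end of the gene span and 10 within 1000 nt of the 3′ end. Other listed positions were not counted at these distances, so the numbers have no background. Positions of a bin share their place, so the counts are over bins, with no test. Exons and introns were not analysed here.

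**Figure D5:**
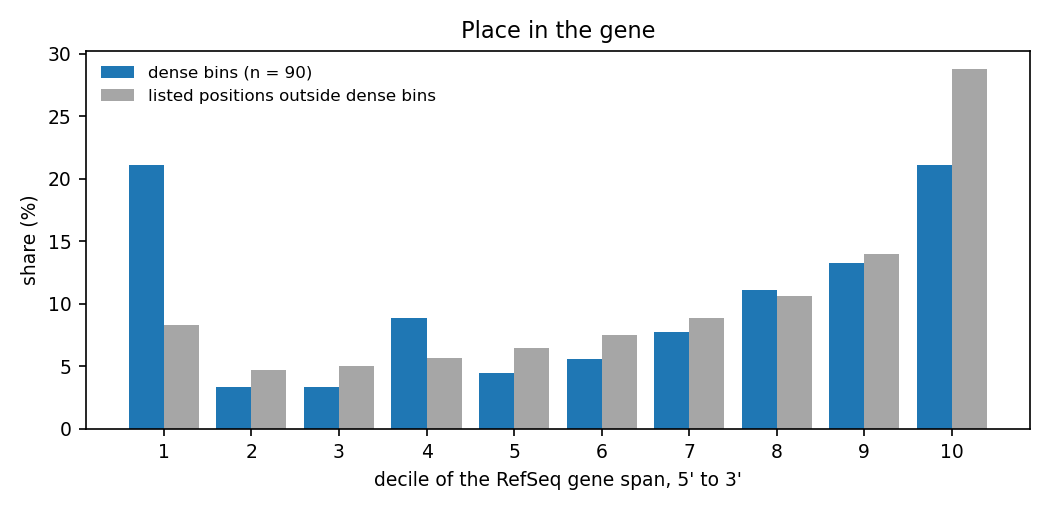
Share (y axis, percent) of the dense bins and of listed positions outside them in each decile of the RefSeq gene span, 5′ to 3′ (x axis). Dense bins reach 21.1% in the first and in the last decile, and other positions 8.3% and 28.8%.

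Levels of close positions were not much more alike than those of distant ones. In the dense bins, positions 1 nt apart differed by a median of 0.193 in level (696 pairs), and positions 50 to 99 nt apart by 0.188 (3801 pairs). Positions 2 nt apart were closest, with a median difference of 0.139 (760 pairs), and those 3 nt apart differed by 0.191. Bins of 10 to 19 positions had the same order, with 0.2, 0.144 and 0.188 at 1, 2 and 3 nt. Pairs share positions, reads and bins, so these medians are descriptions.

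Genes of the pathways chosen for these cells rarely had a dense bin. Over 17 lists with 259 genes, 206 genes had a listed position and 2 of these a dense bin (0.971%, against 1.10% of all labels), which is no more than the background. They were Golgb1 and Csf3r. Csf3r, the receptor gene for granulocyte colony-stimulating factor, had 21 positions from 126025719 to 126025792 on chromosome 4, a median level of 0.5 and 2 calls in both replicates. The list of the RNA methylation machinery had 8 of 16 genes with a listed position and 0 with a dense bin, and its fullest bin, in Nsun2, held 12 positions. Among chromatin regulators all 19 genes had a listed position, and the fullest bin, in Trrap, held 18. The share of all genes with a listed position was not counted, so the counts of list genes with one have no background. The fullest bin among homing and adhesion genes held 17 positions, in the integrin gene Itgal, and that among ribosomal protein genes 16, in Rpl13.

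Listed positions were found in 7 of 10 myeloid markers, among them Mpo, Elane and Csf3r, and in 4 of 6 stem and progenitor markers. They were found in 0 of 5 B cell markers, 0 of 6 muscle and heart markers and 1 of 8 T and NK cell markers (Nkg7). Of the other types, 2 of 6 stroma markers (Pdgfrb and Vim), 1 of 6 brain markers (Mbp), 2 of 7 exocrine pancreas markers (Cela1 and Ctrb1), 1 of 5 liver markers (Ttr) and 1 of 7 erythroid and megakaryocyte markers (Pf4) had listed positions, and 0 of these genes had a dense bin. Endocrine pancreas markers had listed positions in 7 of 10 genes, and 0 of these had a bin that counts here, since the hormone bins were left out. No dense bin carried a marker other than Csf3r. The share of all genes with a listed position was not counted, so these marker counts have no background and are not read as a sign of cell type.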

How the data were processed

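Poly(A) RNA of 2 WT and 2 Tet2 KO libraries was bisulfite-converted, per the labels. Coordinates are on mm10, per the submitters' processing notes, and no source used here names the aligner or site caller. The deposited table pools the KO replicates. Its read numbers are treated as a score, because the authors gave the rounded mean of both libraries where both had a call, and whole reads otherwise. The level is a fraction deposited by the authors, unconverted reads over reads used, averaged over replicates with a call. Deposited p-values of the methylation state, at most 0.000114, were not used further. The deposited normalized read numbers were not used. Every listed position has at least 10 covering reads and a level of at least 0.2.

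Bins are the position divided by 100, rounded down, per chromosome and strand. The reads used were taken as the unconverted reads over the level, which gave whole numbers at 100% of positions called in 1 replicate (tolerance 0.0006). The deposited SD was read as a population SD and converted to a sample SD. Read that way, 9.67% of the SDs above 0 put a replicate exactly at the table's limits of 0.2 or 1, against 0.00733% with the other divisor. Gene labels were matched to RefSeq gene spans (GRCm38.p6), which give deciles, and bases came from RefSeq promoter windows (250 nt before to 50 nt after a start) and hairpins. Wilson and exact binomial intervals are at 95%, cover counting error only and treat reads as independent molecules, which was not checked. Intervals over positions also treat the positions of a bin as independent, although they share reads, and are thus too narrow. Values were computed with Python 3.11.15 and pandas 2.3.3, and the binning was tested on simulated data.

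The bins, gene lists and named genes were chosen with earlier results of these data known. Named were the 10 fullest bins (1 per gene, ties by coverage), the 10 genes with the most dense bins and then the most positions in them, the 5 bins highest and lowest in median level, the 5 with most calls in both replicates, the 5 with the highest coverage, list members and stretches of adjoining bins; Bccip was added because its sequence could be read. Alternatives were another bin start, 15 or 25 positions per bin, 20 or 30 covering reads, calls in both replicates only, and hormone bins kept.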

Additional observations from a re-analysis of the deposited data

How the results depend on the processing

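Which bins count as dense depended on where bins begin. With bins shifted by 50 nt there were 90 dense bins with 2025 positions, but only 533 of the 2115 positions (25.2%) were in both sets, and 32 gene labels were shared (37.2% of the 86 and 39% of the 82 in the shifted set). The shifted set had a median level of 0.545 and 19.6% of positions called in both replicates. With 15 or more positions required there were 665 bins with 11432 positions, a median level of 0.545, 18.2% called in both and 23.7% in the last decile. With 25 or more there were 18 bins with 505 positions, and 13.1% of these were called in both. At 20 or 30 covering reads, and for calls in both replicates only, there were 0 bins and 0 positions, so no level or share could be given there. Keeping the hormone bins gave 107 bins, with 24.3% of positions called in both and 23.9% in the last decile. Of all values recomputed, those given here included, 18 moved and 9 stayed within 1.5 times the count or within the 95% interval of the value. Those intervals take positions, or pairs of a position and a gene, as independent. Positions of a bin share reads and place, so the intervals are too narrow. A value that moved can thus lie close, as with a median level of 0.545 against an upper limit of 0.542. No paired analysis was possible because the table has 0 columns for a single library, and for the same reason no replicate could be left out. At 10 to 22 covering reads, typical of these bins, counting error limits what can be said of a single position.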

Other observations

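Listed positions on the chromosomes differed by their RefSeq base in more than their number. At the 3270 cytosines 64.7% of the covering reads were used for the level (median over positions called in 1 replicate), against 85% at the 1821 guanines and 85.7% at the 1092 adenines. Calls in both KO replicates were listed for 18.4% of the cytosines, 9.17% of the guanines and 9.8% of the adenines. Their median levels were 0.683, 0.667 and 0.6. On the minus strand 132 of 146 positions with a base were cytosine (90.4%), against 52% of 6037 on the plus strand. Bases were known for 6183 positions, all within promoter windows or microRNA hairpins, and the cause was not tested.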
